A study of Arabidopsis thaliana with 12 samples.

Results

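The 5 genes described here encode enzymes of folate synthesis in Arabidopsis thaliana, from the entry into the pterin branch to the enzyme that sulfamethoxazole (SMX) inhibits. They are AT3G07270, GTP cyclohydrolase I; FOLB1 (AT3G11750) and FOLB2 (AT5G62980), dihydroneopterin aldolases; and AT4G30000 and AT1G69190, which encode the bifunctional enzyme HPPK/DHPS (hydroxymethyldihydropterin pyrophosphokinase and dihydropteroate synthase). They were chosen by their place in the pathway and not by how they changed, though earlier results of these data were known. Each has 1 probe set annotated to a single gene, so that they are 5 of the 13286 genes followed in this way. In all, 22746 probe sets were tested. The study hybridised RNA of whole wild-type Columbia seedlings to 12 Affymetrix arrays, 3 biological replicates for each of 4 treatments. Seedlings received 10 mM sucrose and 0.2 µM SMX together, 10 mM sucrose alone, 0.2 µM SMX alone, or neither (control). All 4 sets of seedlings started in foil-wrapped plates of liquid MS medium, were chilled for 3 days, lit for some hours and then kept for 3 days at growth temperature before RNA was taken.

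Folates carry single-carbon units for the synthesis of purines, thymidylate, methionine and pantothenate. In plants the pterin portion of the molecule begins in the cytosol, where GTP cyclohydrolase I opens the ring of GTP, and dihydroneopterin aldolase later trims the side chain. HPPK then activates the pterin and DHPS joins it to p-aminobenzoate, which is made in plastids. In Arabidopsis AT4G30000 encodes the mitochondrial HPPK/DHPS and AT1G69190 a cytosolic form. Sulfonamides such as SMX resemble p-aminobenzoate and compete with it at DHPS.

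Expression is given on the log2 scale, and the lowest value of the table, 2.12, is called the floor. Array medians lay between 5.63 and 5.84. The arrays with sucrose stood apart in how evenly RNA was labelled along its length. The spike score, the mean excess of 3′ over 5′ signal (log2) for the Bacillus transcripts dap, lys and phe, was 0.72 to 1.58 on the 6 arrays with sucrose, against 3.95 to 7.45 on the 6 arrays without. The same excess for actin was 5.83 to 8.01 with sucrose and 8.06 to 10.14 without. Every sucrose comparison below therefore moves with these scores. Of 10 marker genes for green cotyledons, root hairs and seed storage, 3 had a probe set of a single gene, and none of these 3 marked green cotyledons, so the seedling label was checked only in part. The root hair expansins EXPA7 and EXPA18 averaged 7.48 and 9.46 with sucrose plus SMX, 6.30 and 8.28 with sucrose, 3.25 and 5.15 with SMX, and 3.54 and 4.32 in the control. The seed oleosin OLEO3 averaged 8.84 to 9.05 in the 4 treatments. In whole seedlings a smaller share of the cells that express a gene and less RNA per cell cannot be told apart.

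With sucrose, the first enzyme of the pterin branch read higher while the aldolases and the mitochondrial HPPK/DHPS read lower. Averaged over both SMX levels, AT3G07270 rose 2.05-fold, FOLB1 fell to 0.274 of its level without sucrose, FOLB2 to 0.44 and AT4G30000 to 0.527, while AT1G69190 lay at or next to the floor throughout. With SMX, no gene of the 5 passed the test at either sucrose level. A call meant an adjusted p under 0.05 in limma, with Benjamini-Hochberg adjustment over all 22746 probe sets. For sucrose averaged over the SMX levels, 4 of the 5 genes were called, 1 higher and 3 lower, where 40.7% of all probe sets were called, 20.1% higher and 20.6% lower. A call with sucrose was thus common on these arrays.

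**Figure D1:**
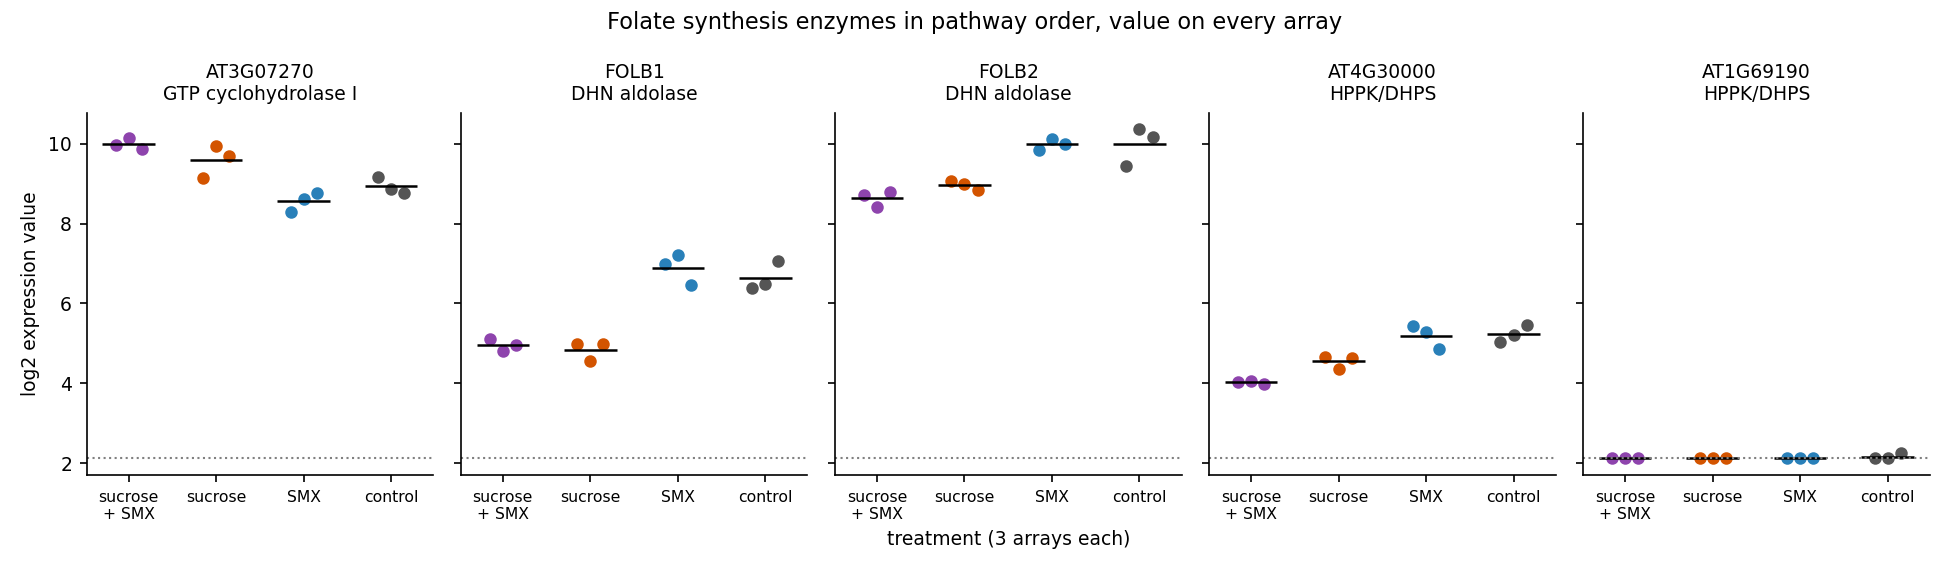
Log2 expression value of each gene on every array (points, 3 per treatment, in order of replicate number) with the treatment mean (line) and the floor of the values (dotted). FOLB1, FOLB2 and AT4G30000 sit lower on all 6 arrays with sucrose than on any array without, AT3G07270 sits higher on 5 of those 6, and AT1G69190 leaves the floor visibly on control replicate 3.

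GTP cyclohydrolase I opens the pathway, and its transcript was the one called higher with sucrose. AT3G07270 read 9.96, 10.14 and 9.87 with sucrose plus SMX, 9.14, 9.93 and 9.68 with sucrose, 8.29, 8.63 and 8.75 with SMX, and 9.18, 8.87 and 8.78 in the control. The arrays with sucrose plus SMX were above all arrays without sucrose, and sucrose replicate 1, at 9.14, lay within the control range. In the presence of SMX, AT3G07270 read higher with sucrose, by a log2 difference of 1.43 (SE 0.21, limma, Benjamini-Hochberg adjusted p = 0.00128). In that comparison 32.5% of probe sets were called, 16.2% higher and 16.2% lower, and the 5 genes gave 1 call higher and 3 lower. Sucrose plus SMX against the control gave 1.05 (SE 0.21; limma, Benjamini-Hochberg adjusted p = 0.00689), where 27.2% of probe sets were called, 13.5% higher and 13.7% lower, and again 1 of the 5 genes higher and 3 lower. Sucrose alone against the control gave 0.64 (SE 0.21; 95% confidence interval 0.17 to 1.12), which did not pass (limma, Benjamini-Hochberg adjusted p = 0.0569). Here 23.5% of probe sets were called, 11.9% higher and 11.6% lower, and of the 5 genes 0 higher and 3 lower. That value passed without sucrose replicate 1 (0.87; limma, Benjamini-Hochberg adjusted p = 0.0115) or control replicate 1 (0.76; 0.0433). It also passed with all arrays kept when probe sets had to have a mean log2 value above 4 (limma, Benjamini-Hochberg adjusted p = 0.0326) or above 6 (0.0286). Treatment means were 9.99 ± 0.14 with sucrose plus SMX, 9.58 ± 0.40 with sucrose, 8.56 ± 0.24 with SMX and 8.94 ± 0.21 in the control (SD, n = 3 each), and no neighbours in the order of these levels differed past the test.

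FOLB1 and FOLB2 encode dihydroneopterin aldolase, the enzyme that cleaves the pterin side chain, and both transcripts fell with sucrose. FOLB1 read 5.11, 4.80 and 4.95 with sucrose plus SMX, 4.97, 4.56 and 4.97 with sucrose, 6.98, 7.21 and 6.47 with SMX, and 6.38, 6.48 and 7.06 in the control. Arrays with and without sucrose were separated by a gap of 1.27, and SMX and control arrays overlapped. Its log2 difference was −1.81 (SE 0.24) for sucrose alone against the control, −1.93 (SE 0.24) for sucrose plus SMX against SMX alone and −1.69 (SE 0.24) for sucrose plus SMX against the control (limma, Benjamini-Hochberg adjusted p = 0.00163, 0.000595 and 0.00145). Treatment means were 4.95 ± 0.16 with sucrose plus SMX, 4.83 ± 0.24 with sucrose, 6.89 ± 0.38 with SMX and 6.64 ± 0.36 in the control (SD, n = 3 each). The pair with sucrose did not differ past the test, nor did the pair without.

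FOLB2 read 8.72, 8.41 and 8.80 with sucrose plus SMX, 9.06, 8.98 and 8.83 with sucrose, 9.83, 10.12 and 10.0 with SMX, and 9.43, 10.36 and 10.18 in the control. The gap between arrays with and without sucrose was 0.37, with control replicate 1 the lowest of the arrays without. Its log2 difference was −1.03 (SE 0.22) for sucrose alone against the control, −1.34 (SE 0.22) for sucrose plus SMX against SMX alone and −1.34 (SE 0.22) for sucrose plus SMX against the control (limma, Benjamini-Hochberg adjusted p = 0.012, 0.00227 and 0.00304). The first of these did not pass when only the 6 arrays compared were fitted (limma, Benjamini-Hochberg adjusted p = 0.0935). The log2 value of FOLB1 minus that of FOLB2 within an array was lower with sucrose than without (difference −0.68, 6 against 6 arrays). An exact two-sided permutation test over 924 arrangements gave an unadjusted p = 0.013. On these arrays FOLB1 thus fell further than FOLB2. The arrangements ignored the SMX level, and the labelling scores split the same arrays, so the ranking is given as a description. FOLB1 with sucrose lay nearer the floor than FOLB2 did, and the size of a difference near the floor is less sure than its SE shows.

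HPPK/DHPS is the target enzyme of SMX, and only AT4G30000 of its 2 genes read above the floor on every array. Its means with sucrose lay nearer the floor than those of FOLB1, so the size of its differences is also less sure. The SE does not show this, and at 0.16 it was the smallest of the 4 genes. AT4G30000 read 4.03, 4.06 and 3.97 with sucrose plus SMX, 4.67, 4.35 and 4.63 with sucrose, 5.43, 5.29 and 4.85 with SMX, and 5.04, 5.20 and 5.45 in the control. The lowest array without sucrose was 0.18 above the highest array with it, and the 3 arrays with sucrose plus SMX were the lowest of all 12. Its log2 difference was −0.68 (SE 0.16) for sucrose alone against the control, −1.17 (SE 0.16) for sucrose plus SMX against SMX alone and −1.21 (SE 0.16) for sucrose plus SMX against the control (limma, Benjamini-Hochberg adjusted p = 0.0173, 0.00101 and 0.00114). For sucrose alone the call ended without sucrose replicate 2 (limma, Benjamini-Hochberg adjusted p = 0.0652), without control replicate 3 (0.0595) or when the fit held only the 6 arrays concerned (0.0649). AT1G69190 read 2.12 on every array except control replicate 3, where it read 2.26. With values at the floor no size of change can be given for it, and it was called in no comparison.

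Across the pathway, the separation by sucrose held for 3 of the 5 genes, FOLB1, FOLB2 and AT4G30000, for which the 6 arrays with sucrose and the 6 without did not overlap, as for 25.2% of all probe sets. Between treatments of 3 arrays, 3 of the 5 genes were free of overlap for sucrose alone against the control (34.9% of all probe sets), 4 for sucrose plus SMX against the control (38.6%) and 4 for sucrose plus SMX against SMX alone (45.3%). The limma F test over the 4 treatments called 4 of the 5 genes, all but AT1G69190, where 31% of probe sets were called. Within treatments, the deviations of FOLB1 and AT4G30000 from their treatment means ran together (Pearson r = 0.86 over 12 arrays). Those of AT3G07270 ran against AT4G30000 (r = −0.70), FOLB1 (r = −0.59) and FOLB2 (r = −0.40). Those of FOLB2 were weakly related to FOLB1 (r = 0.33) and AT4G30000 (r = 0.19). These 12 deviations share 4 fitted means and each array's labelling. They are given as a description, with no such r over all probe sets beside them.

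The SMX comparisons addressed whether transcripts of the branch that holds DHPS differed with 0.2 µM SMX. The arrays do not measure inhibition of DHPS itself. None of the 5 genes was called for SMX alone against the control (0.0835% of probe sets called), for SMX added to sucrose (0.189%) or for SMX averaged over both sucrose levels (0.0923%). Unadjusted limma p-values were under 0.05 for 0 of the 5 with SMX alone (6.64% of all probe sets), for 1 with SMX added to sucrose (5.52%) and for 1 on average (5.44%), AT4G30000 in both cases. For SMX alone the log2 difference of AT4G30000 was −0.044 (95% confidence interval −0.41 to 0.32, or 0.752-fold to 1.25-fold). FOLB1 gave 0.25 (−0.29 to 0.78), FOLB2 −0.0044 (−0.51 to 0.50) and AT3G07270 −0.38 (−0.86 to 0.094). These intervals are from limma and are not adjusted for the number of genes.

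With sucrose present, AT4G30000 had its largest difference with SMX. The 3 arrays with sucrose plus SMX, at 3.97 to 4.06, all lay under the 3 with sucrose alone, at 4.35 to 4.67. The size of a difference between values this near the floor is less sure than its SE shows. The log2 difference was −0.53 (SE 0.16; 95% confidence interval −0.90 to −0.16), with an unadjusted p of 0.0101 and a Benjamini-Hochberg adjusted p = 0.519 in limma, so it did not pass over all probe sets. Groups of 3 arrays were free of overlap for 9.7% of all probe sets in this comparison. The remaining log2 differences with SMX in sucrose were 0.41 (−0.071 to 0.88) for AT3G07270, 0.12 (−0.42 to 0.66) for FOLB1 and −0.31 (−0.82 to 0.19) for FOLB2, whose 3 arrays with both additions also lay under the 3 with sucrose alone. Without sucrose replicate 1 the value of AT3G07270 was 0.18, and without sucrose plus SMX replicate 2 that of FOLB2 was −0.20. Same-numbered arrays of these 2 treatments deviated from their treatment means together (r = 0.12 to 0.23 in the 3 pairs). Within the pairs numbered 1, 2 and 3, SMX differences in sucrose were −0.64, −0.29 and −0.66 for AT4G30000, 0.82, 0.21 and 0.19 for AT3G07270, −0.34, −0.58 and −0.029 for FOLB2, and 0.14, 0.24 and −0.025 for FOLB1. All 3 pairs thus had 1 sign for each gene but FOLB1. For AT4G30000 and FOLB2 any pairing would give this, since their arrays did not overlap. The share of all probe sets with 1 sign in the 3 pairs was not computed. With the replicate number as a block none of them was called, either over the 12 arrays (AT4G30000, limma, Benjamini-Hochberg adjusted p = 0.651) or over the 6 arrays with sucrose (0.551), and the number of probe sets called over all was 28 and 0, against 43 without the block.

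The SMX differences of AT3G07270 had opposite signs at the 2 sucrose levels. The difference with sucrose rests in part on sucrose replicate 1, as given above. With sucrose, all 3 arrays with SMX read above the mean of the sucrose arrays. These groups overlapped, with sucrose replicate 2 at 9.93 above sucrose plus SMX replicate 3 at 9.87. Without sucrose, all 3 arrays with SMX read below every control array, by a narrow margin (8.75 against 8.78). Such a lack of overlap was seen for 7.46% of all probe sets. The interaction, the SMX difference with sucrose minus that without, was 0.79 (SE 0.30; 95% confidence interval 0.12 to 1.47), with an unadjusted p of 0.0268 and a Benjamini-Hochberg adjusted p = 0.716 in limma. It was −0.48 (SE 0.23) for AT4G30000, −0.31 (SE 0.31) for FOLB2 and −0.13 (SE 0.33) for FOLB1. No gene of the 5 was called for the interaction in limma, where 0.0703% of probe sets were, and AT3G07270 was the 1 gene with an unadjusted p under 0.05, as had 6.12% of all probe sets. Averaged over both sucrose levels, the SMX difference was 0.011 (−0.33 to 0.35) for AT3G07270, 0.18 (−0.20 to 0.56) for FOLB1, −0.16 (−0.52 to 0.20) for FOLB2 and −0.29 (−0.55 to −0.027; limma, Benjamini-Hochberg adjusted p = 0.851) for AT4G30000.

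**Figure D2:**
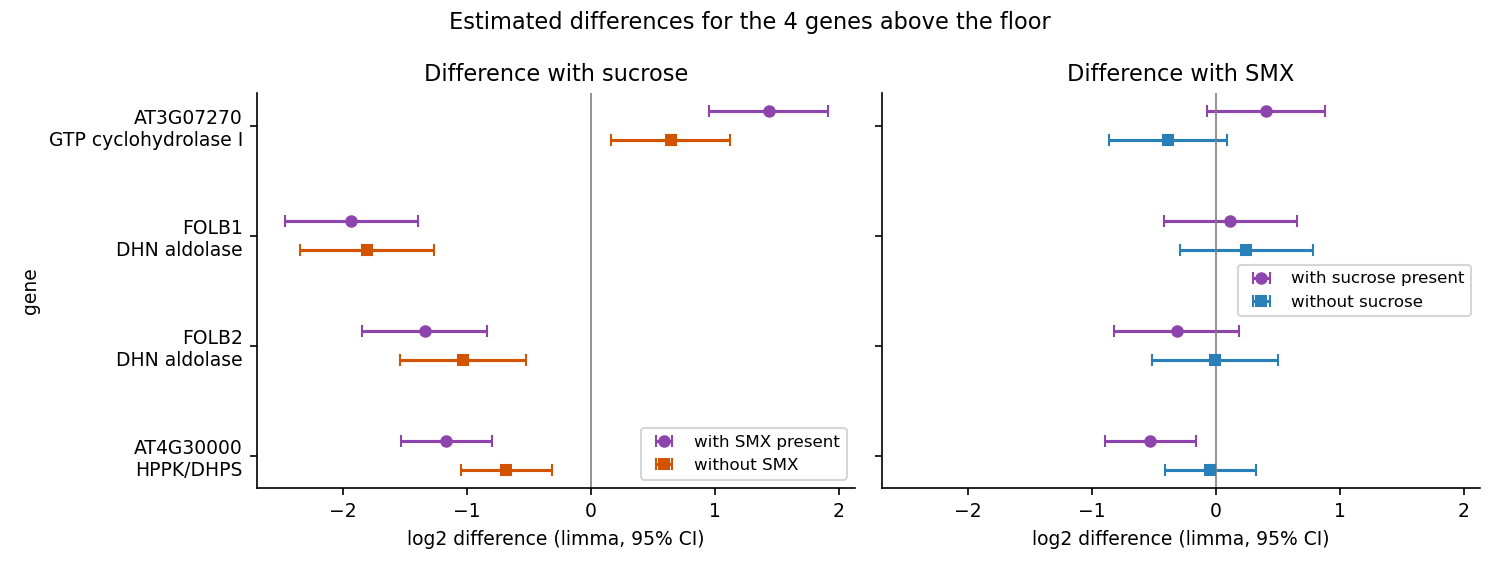
Log2 differences with 95% confidence intervals from limma for the 4 genes above the floor, for sucrose (left; with SMX present, and without) and for SMX (right; with sucrose present, and without). The sucrose intervals all exclude 0, while of the SMX intervals only that of AT4G30000 with sucrose present (−0.90 to −0.16) does so.

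The sucrose calls of these genes ended once the labelling score of each array was entered in the fit. After entering the spike score, the log2 difference with sucrose, averaged over the SMX levels, was 0.87 (SE 0.43) for AT3G07270, −1.18 (SE 0.41) for FOLB1, −0.38 (SE 0.34) for FOLB2 and −0.77 (SE 0.33) for AT4G30000, against 1.04, −1.87, −1.19 and −0.92 without it. Adjusted p-values with it lay between 0.229 and 0.715 (limma, Benjamini-Hochberg). AT3G07270 and AT4G30000 kept 83.3% and 83.2% of their size, FOLB1 63.4% and FOLB2 32.2%. The actin score left 36.5% for AT3G07270, 84.4% for FOLB1, 39.3% for FOLB2 and 72.2% for AT4G30000, so the 2 scores ranked the genes differently. Signs did not change, and none of the 5 genes was called with either score. Of all probe sets, 0.55% were called after entering the spike score and 1.93% after entering the actin score, in place of 40.7%. The median SE of the 4 genes grew 2.68 times under the spike score and 2.14 times under the actin score. Both fits extend slopes estimated within treatments to the difference between arrays with and without sucrose. The spike score leaves a gap there, between 1.58 and 3.95, while on the actin score sucrose replicate 1, at 8.01, lay next to control replicate 1, at 8.06. Those slopes did not pass over all probe sets for any of the 4 genes; for FOLB2 the slope was 0.18 per unit of spike score (SE 0.073; limma, Benjamini-Hochberg adjusted p = 0.414).

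**Figure D3:**
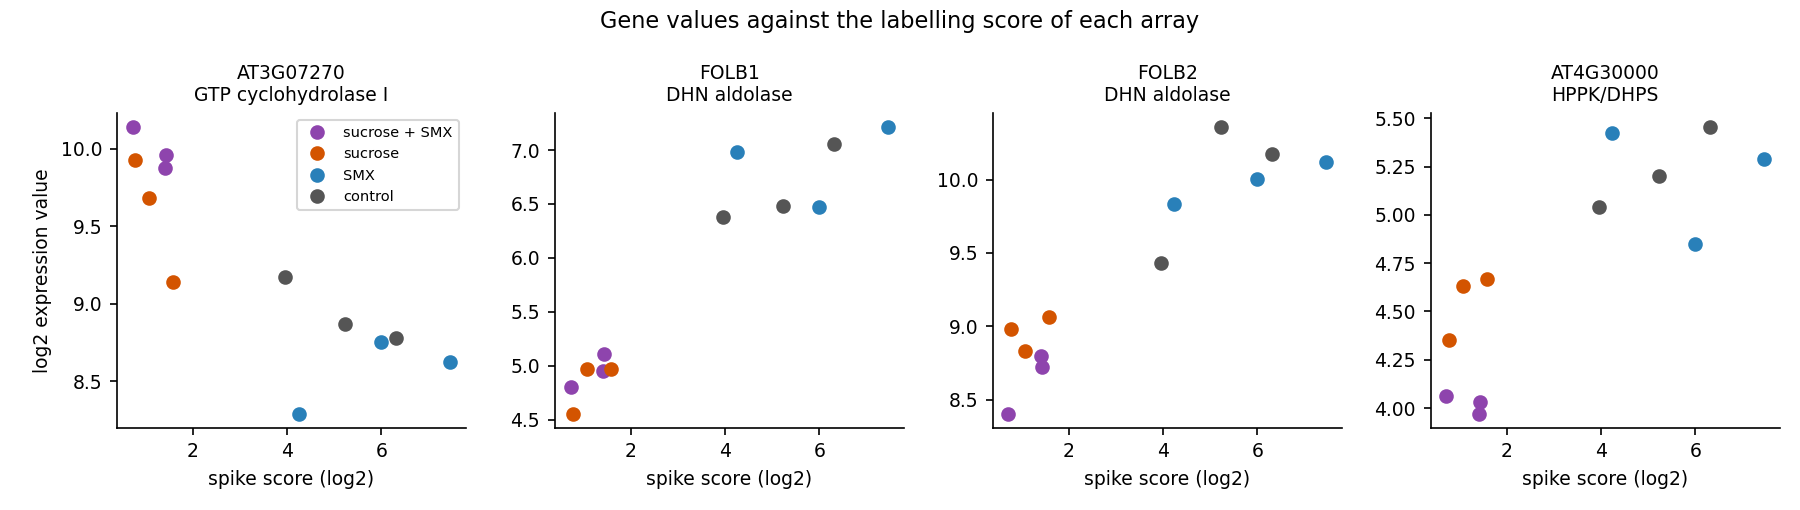
Log2 value of each of the 4 genes (vertical axis) against the spike score of the same array (horizontal axis, log2 difference of 3′ and 5′ signal), coloured by treatment. The 6 arrays with sucrose lie between 0.72 and 1.58 on the score and the 6 without between 3.95 and 7.45, with no array in between.

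**Figure D4:**
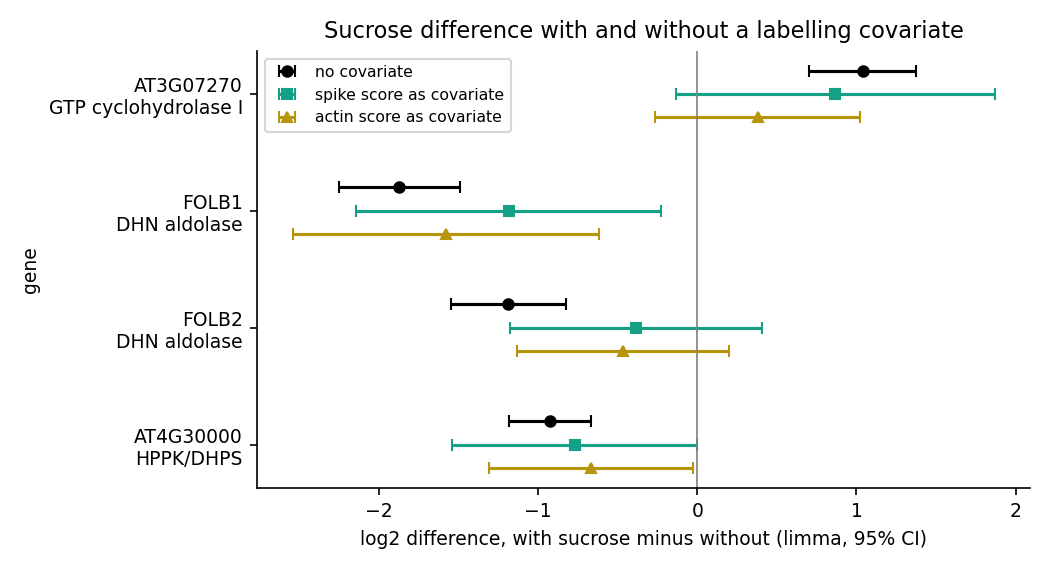
Log2 difference with sucrose, averaged over the SMX levels, with its 95% confidence interval from limma, for each gene without a covariate and with the spike or the actin score as one. Intervals widen with either score, and those of AT3G07270 and FOLB2 then include 0.

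The wider folate pathway was followed through a list of 49 genes, of which 18 had a probe set of a single gene. Of 13 beyond the 5 above, sucrose averaged over the SMX levels called 4 higher and 4 lower, where 20.1% of all probe sets were called higher and 20.6% lower, with a median log2 difference of 0.031 against −0.0095 over all probe sets. None of the 13 was called for SMX alone, for SMX added to sucrose or for the interaction. In the p-aminobenzoate branch, ADCL, the lyase that releases p-aminobenzoate, fell by 0.34 on the log2 scale (SE 0.11; limma with Benjamini-Hochberg, adjusted p = 0.0421). It was called in 2 of the 12 fits that left out 1 array.

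Of 6 genes that interconvert folate-bound carbon, 2 were called higher with sucrose and 3 lower, against the same 20.1% and 20.6% of all probe sets. AT3G12290, a methylenetetrahydrofolate dehydrogenase, averaged 11.02 ± 0.27 with sucrose plus SMX and 11.02 ± 0.30 with sucrose, against 9.53 ± 0.47 with SMX and 9.62 ± 0.34 in the control (SD, n = 3 each), a rise of 1.45 (SE 0.20; limma, Benjamini-Hochberg adjusted p = 0.000515). 5-FCL, the cycloligase that recycles 5-formyltetrahydrofolate, averaged 5.95 ± 0.20 with sucrose plus SMX and 6.18 ± 0.81 with sucrose, against 4.48 ± 0.21 with SMX and 4.91 ± 0.11 in the control, a rise of 1.37 (SE 0.24; limma, Benjamini-Hochberg adjusted p = 0.00202). AT5G47435, a formyltetrahydrofolate deformylase, averaged 10.57 ± 0.081 with sucrose plus SMX and 10.73 ± 0.13 with sucrose, against 11.50 ± 0.084 with SMX and 11.71 ± 0.32 in the control, a difference of −0.96 (SE 0.10; limma, Benjamini-Hochberg adjusted p = 0.000155). Its paralog AT4G17360 read between 2.12 and 2.78, near the floor, and was called lower (−0.33, SE 0.093). AT2G38660, another methylenetetrahydrofolate dehydrogenase, was called lower by a small amount (−0.13, SE 0.04), and its call ended in 9 of the 12 fits that left out 1 array.

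Of 3 enzymes that spend folates, 2 were called higher with sucrose and 0 lower, again beside 20.1% and 20.6% of all probe sets, and 3 genes are too few to describe a group. AT2G35040, the transformylase near the end of purine synthesis, rose by 0.78 on the log2 scale (SE 0.095; limma with Benjamini-Hochberg, adjusted p = 0.000289). PANB2, which uses a folate to build pantothenate, rose by 0.54 on the log2 scale (SE 0.18; limma with Benjamini-Hochberg, adjusted p = 0.0385) and was called in 3 of 12 fits without 1 array. None of the 8 genes called here was called with either labelling score. With the spike score, AT2G35040 was 0.74, 5-FCL 1.12, AT3G12290 0.59, AT5G47435 −0.47, ADCL −0.023 and PANB2 0.091. With the actin score, AT2G35040 was 0.38, 5-FCL 0.30, AT3G12290 0.67, AT5G47435 −0.48, ADCL −0.053 and PANB2 −0.19. Entering the spike score gave 0.018 for AT4G17360 and −0.34 for AT2G38660, and entering the actin score gave −0.51 and −0.19. Different sizes were thus left by the 2 scores, as for 5-FCL, which kept 82.0% of its difference under the spike score but 21.7% under the actin score.

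**Figure D5:**
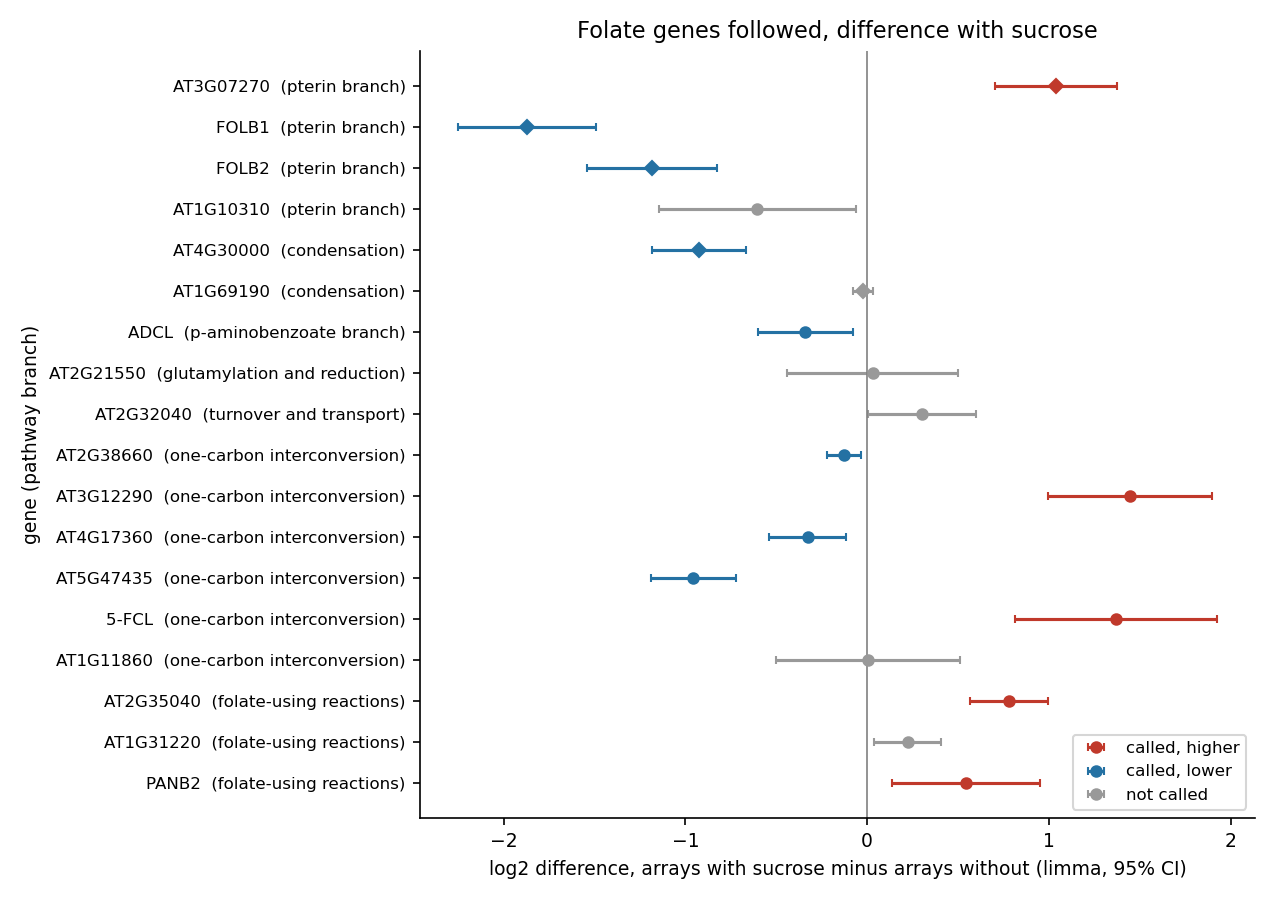
Log2 difference, arrays with sucrose minus arrays without, averaged over the SMX levels, with its 95% confidence interval from limma, for the 18 folate genes followed, in pathway order from top to bottom. Diamonds mark the 5 genes around the SMX target; red, blue and grey mark genes called higher (5), called lower (7) and not called (6).

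The genes whose values ran closest to each of the 4 genes over the 12 arrays were sought among 12125 probe sets of 1 gene. For AT3G07270 they were AT5G42850, AT3G55430 and LIP1 (Pearson r = 0.980, 0.979 and 0.978). FOLB1 was matched by AT3G19810, AT5G23520 and AT1G73110 (r = 0.987, 0.984 and 0.984), and FOLB2 by AT1G11440, AT5G44150 and AT4G39235 (r = 0.985, 0.978 and 0.978). AT4G30000 was closest to AT3G24715, AT2G25070 and AT5G53020 (r = 0.968, 0.965 and 0.962). Such values were common, since 383, 739, 671 and 259 probe sets had an r above 0.9 with AT3G07270, FOLB1, FOLB2 and AT4G30000. The arrays fall into those with and without sucrose, which differ in labelling as well, and every correlation here is over points that share this split.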

How the data were processed

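The authors deposited 1 table with a log2 value for each probe set on each array. GCRMA, a background correction and summary of probe signals, and limma are listed without version or sequence in the submitters' processing notes. No header states the log base, which was taken to be log2 from the range of 2.12 to 15.7. The 64 Affymetrix control probe sets were left out of the tests. Genes were named through the platform's annotation and gene IDs of the TAIR10.1 annotation, used for names alone; binding of probes to close paralogs was not tested.

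A single linear model was fitted to the 12 arrays with limma 3.58.1 (functions lmFit and eBayes) under R 4.3.3, giving 8 contrasts and an F test, Benjamini-Hochberg adjusted over 22746 probe sets within each contrast, two-sided. The 5 genes were always named, other folate genes where called in any contrast, and for each of the 5 with a call and a group mean of at least 5 the 3 genes of highest Pearson r. The genes, lists and alternatives were chosen with earlier results of these data known. Alternatives were median centring, quantile normalization, filters on the mean log2 value (4 or 6), probe sets of 1 gene, only the arrays compared, an intensity trend with a robust prior, the replicate number as a block, the labelling scores as covariates, and leaving out arrays. The labels give replicate numbers but no shared batch; same-numbered arrays with sucrose plus SMX and with sucrose alone deviated together (r = 0.12 to 0.23), so a block over these 6 arrays was added after the data were known. The fit was tested on simulated data with independent noise and no labelling difference, so that test does not bear on the labelling of these arrays. The number of arrays, 3 per treatment, limits the precision.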

Additional observations from a re-analysis of the deposited data

Results flagged for a closer look

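The SMX difference of AT3G07270, GTP cyclohydrolase I, had opposite signs at the 2 sucrose levels: the 3 arrays with sucrose plus SMX all read above the mean with sucrose alone, and the 3 with SMX alone all read below the control mean. The difference between the 2 SMX differences was 0.79 on the log2 scale and did not pass in limma (Benjamini-Hochberg adjusted p = 0.716), and its value was 0.57 to 0.96 over the 12 fits that left out 1 array. It was 0.45 without both control replicate 1 and sucrose replicate 1, a choice made after the data were known. The 5′ signal of the dap, lys and phe spike probe sets was 10.5 to 12.1 on the arrays with sucrose and 4.71 to 8.56 on those without, a mean log2 difference of 4.81. These probe sets were not tested, and their signal enters the gene comparisons only through the spike score.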

How the results depend on the processing

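Without a covariate, the called sucrose differences of AT3G07270, FOLB1, FOLB2 and AT4G30000 kept their direction in each fit run, and no SMX difference or interaction of these genes was called in any fit. Once the spike or the actin score was entered, the number of the 5 genes called was 0 in each sucrose comparison and in the F test, in place of 3 for sucrose alone and 4 in the others, and sucrose alone called 65 (spike) or 338 (actin) probe sets in place of 5336. A mean log2 value above 6 left 2 called in the F test and in each comparison that had 4, since FOLB1 and AT4G30000 fall under that minimum, while for sucrose alone AT3G07270 gained its call there and above 4. Only 1 gene, FOLB1, was called for sucrose alone in a fit of the 6 arrays compared (1856 probe sets). Leaving out 1 array gave 2 to 4 genes called for sucrose alone and 3284 to 6399 probe sets, and 4 genes in the other sucrose comparisons and the F test. Probe sets called there were 4557 to 6999 for sucrose plus SMX against the control and 5985 to 7717 against SMX alone. They were 8332 to 9673 for sucrose averaged over the SMX levels and 5847 to 7708 in the F test, of 22746 tested.

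Same-numbered arrays deviated from their treatment means together in 8 of 18 pairs (r over 0.1, range −0.40 to 0.23). Among the 12 arrays, 8 correlated best with an array of their own number, at most a weak hint of pairing. Pairs of different number ran from −0.26 to 0.39, so the highest r lay between arrays of different number. Every pair passed 0.1 between sucrose plus SMX and sucrose alone, the one comparison taken as paired. With the replicate block, 3 genes were called for sucrose alone and 4 in the other sucrose comparisons, as without it. The block changed no call of the 5 genes. It left 4871 probe sets called for sucrose alone and 5884 for sucrose plus SMX against the control. Against SMX alone 7098 were called, and 9155 for sucrose averaged over the SMX levels.

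Median centring shifted the median probe set by −0.11 for sucrose alone and turned no called difference of the 5 genes. Among called differences of all named folate genes, the sign changed for AT4G17360 (0.018 with the spike score) and PANB2 (−0.19 with the actin score), averaged over the SMX levels. The SMX difference averaged over sucrose levels of AT3G07270 ran from −0.0998 to 0.0977 without single arrays, that of SMX alone from −0.16 to 0.13 for AT4G30000 and from −0.28 to 0.18 for FOLB2 (0.040 after quantile normalization), that of SMX added to sucrose from −0.020 to 0.20 for FOLB1, and the FOLB1 interaction from −0.33 to 0.035. Leaving out the first control and sucrose arrays together, chosen after the data were known, gave −0.041 for the averaged SMX difference of AT3G07270 and interactions of 0.45 for AT3G07270, 0.072 for FOLB1 and 0.019 for FOLB2.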
